A study of Mus musculus with 41 samples.

Results

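The genes described here are the 3 E protein genes Tcf3, Tcf4 and Tcf12 and the 3 inhibitor genes Id1, Id2 and Id3, followed from the common lymphoid progenitor (CLP) to mature B cells of the mouse. They were chosen by name: every probe set that the platform annotation assigned to 1 of these symbols was taken, which gave 19 of 45101 probe sets and 6 of 18193 annotated genes. The E protein genes had 14 of these probe sets (3 for Tcf3, 6 for Tcf4 and 5 for Tcf12), and the Id genes had 5 (1 for Id1, 3 for Id2 and 1 for Id3). The series holds 41 Affymetrix arrays of flow-sorted cells from untreated C57BL/6 mice, all of them Pax5 wild type. There were 7 arrays each of the CLP, fraction A and fraction B and 5 each of fractions C, D, E and F of Hardy's scheme, and the labels gave no age, tissue or sorting gate. As background, that scheme names fraction A the pre-pro-B stage, B and C are pro-B and early pre-B stages, D holds small pre-B cells, E immature B cells and F mature B cells. Nothing in the labels ties the arrays of 1 population to different animals, and p-values therefore cover only the spread among these arrays, which may be technical.

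E proteins are helix-loop-helix transcription factors that bind, as dimers, a short DNA motif called the E-box (CANNTG), and they switch on much of the B cell programme. Tcf3 encodes the E protein without which B cell development stops at its start, Tcf12 encodes HEB, which often pairs with the Tcf3 product, and Tcf4 encodes an E protein best known from plasmacytoid dendritic cells. Id proteins have the dimerisation region but no DNA-binding region, so they take E proteins into pairs that cannot bind DNA. Id2 is needed for natural killer (NK) cells and other innate lymphocytes, and Id3 is known as a gene that antigen receptor signals raise through Egr factors.

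Across the path, the E protein and Id genes did not move as opposing blocks. By the mean of the probe set that represents each gene, fraction A had the lowest Tcf3 and Id3 and the highest Id2 and Tcf4. By the same means, fraction B had the lowest Id2, fraction C the highest Tcf3 and fraction D the highest Tcf12, and Id3 was highest in fractions E and F. The tests described below did not separate Id2 in B from C or F, or Tcf3 in C from the CLP. Nor did they separate Id3 in B, C or D from E or F. Other probe sets of Tcf3, Tcf12 and Id2 did not all share these ranks. Id2 and Id3 ran in opposite directions at the first steps: Id2 rose and Id3 fell in fraction A relative to the CLP, and Id2 fell while Id3 rose in fraction B relative to fraction A. Id1 reached the median signal of its array on 3 of the 41 arrays.

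Levels are MAS5 signals, which the authors had scaled on every array to the same trimmed mean, and the median signal of an array was between 69.1 and 153.1. Signals of different probe sets cannot be set against each other, so each probe set is compared only with itself. Differences are of log2(signal + 32), which understates the change of low signals, and they were tested with limma in 1 fit of all 41 arrays, with Benjamini-Hochberg adjustment over 11951 genes. A gene was represented by its probe set with the highest mean, and "rose" and "fell" are used for an adjusted p under 0.05. In sorted cells measured in bulk, fewer cells of a type and less RNA per cell cannot be told apart.

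Some arrays stood apart. Arrays 4, 6 and 7 of fraction A correlated least with the other arrays of that fraction (0.864 to 0.895, against 0.957 to 0.968 for the remaining 4). Arrays 1 and 4 of fraction B, at 0.947 and 0.949, were the lowest of that group. Results that rest on fractions A and B are therefore also given without these arrays where this moves them. Gapdh probe sets at the 3' end over those at the 5' end, a ratio that is higher when RNA is short, gave 12.7 ± 9.92 in fraction A, 7.52 ± 2.33 in fraction B and 4.17 ± 0.52 in the CLP (SD, n = 7 each). Fraction A also carried NK cell genes. The summed signal of the 11 annotated genes of an NK list was 53041 to 83278 on fraction A arrays, against 2467 to 3276 on CLP arrays and 1198 to 2074 on fraction B arrays. Gzma, a granule protease of cytotoxic cells, had a median signal of 23873 in fraction A, against 100 in the CLP. A plasmacytoid dendritic cell list of 12 genes summed to 13800 to 33903 in fraction A, against 7725 to 13008 in the CLP and 2615 to 6053 in fraction B. None of the annotated defining markers was listed at 0 on any array, and the part of NK or dendritic cell RNA in the values of fraction A was not tested. Ms4a1, which encodes the B cell protein CD20, had a median of 21232.9 in fraction E and 21347.5 in fraction F, against 68.7 in the CLP.

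Promoter sequences are shown because the E-box is the site at which E proteins bind and which Id proteins keep them from. They are the 250 bases before the annotated start, taken from RefSeq on GRCm38.p6, and 4 of the 6 genes were matched by symbol (Tcf3, Tcf12, Id2 and Id3). Capitals mark matches to CANNTG, which reads the same on both strands when only its fixed letters are considered and of which CAGCTG is 1 form. Tcf3 lies at chr10:80409541-80433976, and its window is chr10:80433636-80433885 on the minus strand, inside the gene's span, since the listed start is not its outermost base. Tcf12 lies at chr9:71844252-72111893, and its window at the first of 3 listed starts is chr9:72111820-72112069 on the minus strand, which overlaps the end of the gene's span. Id2 lies at chr12:25093799-25096092, with the window chr12:25096093-25096342 on the minus strand, and Id3 lies at chr4:136143822-136145392, with the window chr4:136143572-136143821 on the plus strand.
Tcf3: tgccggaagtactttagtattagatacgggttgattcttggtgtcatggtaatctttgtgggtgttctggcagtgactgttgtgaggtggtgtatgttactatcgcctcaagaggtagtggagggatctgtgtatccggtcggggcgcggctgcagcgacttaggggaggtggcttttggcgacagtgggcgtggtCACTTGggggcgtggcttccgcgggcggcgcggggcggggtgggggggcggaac
Tcf12: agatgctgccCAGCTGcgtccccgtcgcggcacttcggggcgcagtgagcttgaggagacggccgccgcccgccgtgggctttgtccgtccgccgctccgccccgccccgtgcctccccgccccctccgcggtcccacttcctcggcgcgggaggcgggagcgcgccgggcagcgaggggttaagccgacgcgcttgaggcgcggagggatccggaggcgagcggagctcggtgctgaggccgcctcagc
Id2: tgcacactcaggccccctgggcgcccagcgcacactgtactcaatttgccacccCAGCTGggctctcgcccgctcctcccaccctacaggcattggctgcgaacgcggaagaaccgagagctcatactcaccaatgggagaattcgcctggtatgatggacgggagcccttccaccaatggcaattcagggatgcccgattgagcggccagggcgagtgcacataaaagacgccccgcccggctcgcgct
Id3: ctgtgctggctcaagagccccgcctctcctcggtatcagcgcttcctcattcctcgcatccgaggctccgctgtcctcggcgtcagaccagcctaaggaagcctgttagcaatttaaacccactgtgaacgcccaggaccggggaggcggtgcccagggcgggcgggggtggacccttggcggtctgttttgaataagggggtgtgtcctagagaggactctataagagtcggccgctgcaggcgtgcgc

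The Tcf3 window held 1 match (CACTTG), which began 54 bases before the start. The Id2 window held CAGCTG 196 bases before the start, and the Id3 window held no match. The Tcf12 window printed here, at the first listed start, held CAGCTG 240 bases before it. At the second listed Tcf12 start the window held CAAGTG and no CAGCTG, and at the third it held no match. Of all 32851 listed promoters of this length, 66.2% held CANNTG and 13.0% held CAGCTG, so a match to CANNTG is common and the form CAGCTG is less so. The matches are letters in a window and were not measured as binding.

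Tcf3 was represented by the probe set 1426297_at, with a lowest, median and highest signal of 912.1, 1539.6 and 2954.5 in the CLP. In fraction A these were 46.7, 368.8 and 1018.5, and in fraction B 859.3, 1135 and 2225.7. The 7 fraction A arrays were spread over a wide range, and arrays 4 and 6, at 53.3 and 46.7, lay below the middle of their arrays. Fraction C had signals of 3789.4, 3150.4, 2892.9, 2529.1 and 4121.5. Fraction D followed with 1124.3, 1222.2, 929.0, 1322.7 and 1480.0. All 5 arrays of fraction C lay above all arrays of fractions B and D. Fraction E had 657.8, 1087.3, 633.9, 943.4 and 695.6, and fraction F had 871.7, 973.6, 1199.9, 792.9 and 801.2, so these late fractions overlapped.

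Tcf3 fell in fraction A relative to the CLP by 2.40 ± 0.35 on the log2 scale (SE, limma adjusted p = 6.06e-07), and it rose in fraction B relative to fraction A by 2.07 ± 0.35 (limma adjusted p = 7.64e-06). Without arrays 4, 6 and 7 of fraction A these differences were -1.92 and 1.59, and both passed. It rose in fraction C relative to B by 1.39 ± 0.38 (limma adjusted p = 0.00589) and fell in fraction D relative to C by 1.41 ± 0.41 (limma adjusted p = 0.0102). In the order of its levels, C, CLP, B, D, F, E and A, the only neighbours that passed were E and A (1.45 ± 0.38, limma adjusted p = 0.00205). Fraction C also carried myeloid genes: a list of 12 summed to 63001 to 87003 there, against 4850 to 21762 in fraction B and 19293 to 26200 in fraction D, and their part in the Tcf3 value was not tested.

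The other Tcf3 probe sets did not share this pattern to the same degree. 1452542_x_at was also highest in fraction C (mean 8.02 on the log2 scale) and lowest in fraction A (6.88), but passed at none of the steps. 1427764_a_at was highest in fraction D (10.22) and lowest in the CLP (8.74) and passed at none of the steps either, although it was 1.48 ± 0.34 higher in fraction D than in the CLP (limma adjusted p = 0.000587). Averaging the 3 probe sets gave -1.06 for A minus CLP and 1.07 for B minus A, which still passed. The difference of fraction C from B was then 0.72 and that of D from C was -0.47, and neither passed. With median centring the difference of C from B was 0.97 and did not pass.

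Tcf4, which lies at chr18:69343429-69687967, stood at a higher level in fraction A than anywhere else. Its probe set 1416723_at had a lowest, median and highest signal of 3830.3, 4382.7 and 5312.7 in the CLP, of 5465.5, 7484 and 11386 in fraction A and of 2316.3, 4403.4 and 5133.1 in fraction B. No fraction A array overlapped with an array of the CLP or of fraction B. In fraction C the signals lay between 3292.1 and 5140.7 and in fraction D between 3094.1 and 3858.1. In fraction E they lay between 2930 and 3650.2 and in fraction F between 3552.8 and 4041.5. From fraction B to F the populations overlapped at each step.

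Tcf4 rose in fraction A relative to the CLP by 0.81 ± 0.15 (limma adjusted p = 4.11e-05) and fell in fraction B relative to A by 0.99 ± 0.15 (limma adjusted p = 1.41e-06). Over 13 alternative settings the first difference lay between 0.504 and 1.04. No later step passed: C minus B was 0.01 ± 0.17, D minus C was -0.21 ± 0.18, E minus D was -0.02 ± 0.18 and F minus E was 0.15 ± 0.18. In the order A, CLP, C, B, F, D and E, the only neighbours that passed were A and the CLP. Of the 12 plasmacytoid dendritic cell genes summed above, 6 also rose and 0 fell in fraction A relative to the CLP (11.5% and 25.6% of all genes). In fraction B relative to the CLP, 1 of them rose and 8 fell (8.81% and 19.1% of all genes). Tcf4 differed by -0.17 ± 0.15 in that comparison and did not pass. Siglech, a receptor of plasmacytoid dendritic cells, had a median signal of 4576.5 in fraction A, against 969.2 in the CLP and 121.4 in fraction B. The part of such cells in the Tcf4 value was not tested.

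The Tcf4 probe sets differed in their patterns. 1416725_at, at 1.2 to 111.8, did not reach the minimum signal for testing. The other 5 were all highest in fraction A, and all 5 fell in fraction B relative to A, with differences of -1.24 to -0.76, where 12.4% of all probe sets tested fell. Relative to the CLP, 3 of them rose in fraction A (0.81, 0.73 and 0.65), where 9.40% of all probe sets rose. 1434148_at (0.40 ± 0.23) and 1434149_at (0.15 ± 0.19) did not pass there. Relative to the CLP, 2 of 5 fell in fraction B, 1424089_a_at (-0.59 ± 0.19) and 1434149_at (-0.96 ± 0.19), where 17.2% of all probe sets fell. The same 2 rose in fraction C relative to B, by 0.60 ± 0.21 and 0.58 ± 0.21, where 15.8% of all probe sets rose. In fraction D relative to C, 1416724_x_at fell by 1.09 ± 0.26 (limma adjusted p = 0.00189) and 1424089_a_at by 1.11 ± 0.23 (limma adjusted p = 0.00039), where 10.4% of all probe sets fell. 1416723_at differed by -0.21 ± 0.18 and 1434148_at by 0.28 ± 0.28 at that step, and neither passed. The signal of 1424089_a_at was 1201.4 to 2048.8 in fraction D, against 2622.2 to 3628.9 in fraction C. In fraction F relative to the CLP, 1416724_x_at (-0.70 ± 0.24) and 1424089_a_at (-0.78 ± 0.21) fell, and 1416723_at, 1434148_at and 1434149_at did not pass. These probe sets therefore disagreed on whether Tcf4 changed between A and the CLP, B and the CLP, C and B, D and C, and F and the CLP.

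Tcf12 stood out in fraction D. 1427670_a_at had signals of 6875.7, 6509.9, 6741.3, 6828.6 and 7203.8 there. Fraction C had 3363.5, 3098.8, 4662.6, 3386.9 and 4539.2, and fraction E had 3943.8, 3355.4, 3970.0, 3760.0 and 3761.1. All 5 fraction D arrays lay above every array of the neighbouring fractions and of the other populations. The CLP ranged from 2558.7 to 3757.4 (median 3234.9), fraction A from 642.6 to 4111.2 (2937.8), fraction B from 2036 to 5497.9 (3658.8) and fraction F from 2803.8 to 4509 (3734.3).

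Tcf12 rose in fraction D relative to C by 0.86 ± 0.27 (limma adjusted p = 0.0199), a call that was lost without array 2 of fraction C (0.79, limma adjusted p = 0.0554). It fell in fraction E relative to D by 0.86 ± 0.27 (limma adjusted p = 0.0395). Leaving out any 1 of the 10 arrays of D and E gave -0.88 to -0.82 with adjusted p-values of 0.0618 to 0.084, although the arrays of D and E did not overlap. In a fit of D and E alone the adjusted p of this fall was 8.35e-08, and over 12 alternative settings it lay between 8.35e-08 and 0.059.

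Tcf12 differed by 0.62 ± 0.23 between fraction B and A (limma adjusted p = 0.0371), but this was 0.105 without arrays 4, 6 and 7 of fraction A. In 6 of 14 alternatives the limma adjusted p, as rounded, was 0.05 or more. In fraction A minus the CLP it was -0.47 ± 0.23 (limma adjusted p = 0.108), and without those arrays it was 0.05. Of its neighbours in the order D, C, E, F, B, CLP and A, only D and C passed.

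Of the 5 Tcf12 probe sets, 4 were highest in fraction D and 1439209_at in fraction E. In fraction D relative to C, 3 of 5 rose, where 8.87% of all probe sets rose: 1427670_a_at, 1446294_at (1.63 ± 0.24) and 1439619_at (2.48 ± 0.34). 1439619_at had signals of 1002.8 to 1490.6 in fraction D, against 107.7 to 294.4 in fraction C. The same 3 probe sets fell in fraction E relative to D (-0.86, -1.13 and -1.12), where 3.32% of all probe sets fell. In fraction F relative to the CLP, 1439209_at, 1439619_at and 1446294_at rose by 1.12, 1.66 and 0.93, where 19.9% of all probe sets rose, whereas 1427670_a_at differed by 0.18 ± 0.25.

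**Figure D1:**
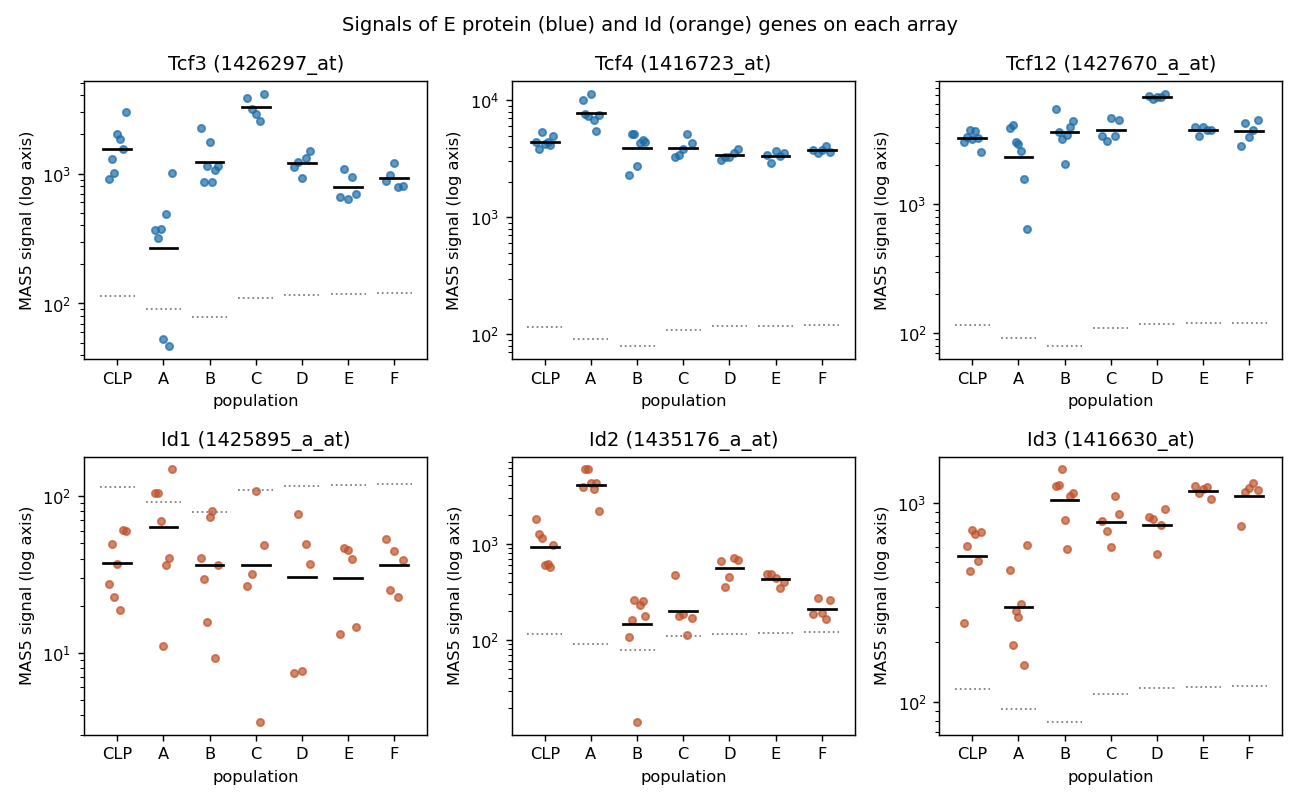
MAS5 signal on each of 41 arrays (points, log axis) by population for the probe set that represents each of 6 genes, with the mean taken on the log2(signal + 32) scale (black bar) and the median array median of the population (dotted grey). Tcf3 is highest in fraction C and lowest in A, Tcf12 is highest in D (6509.9 to 7203.8), Id2 is highest in A (2171.6 to 5874.6), and Id1 lies near or below the dotted line in each population.

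Id1, at chr2:152736251-152737410, had signals of 3.6 to 148.5 on all 41 arrays. Its probe set reached the array median on 3 arrays and was not tested. No fold or order of populations is given for it.

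Id2 had the widest range of the genes tested here. In the CLP, 1435176_a_at had a lowest, median and highest signal of 567, 966.6 and 1811.8. In fraction A these were 2171.6, 4202.7 and 5874.6, and in fraction B 14.1, 177.5 and 260.2. The 3 populations did not overlap. Fraction C had 470.7, 176.7, 186.7, 112.8 and 168.6. Fraction D had 662.8, 351.6, 453.1, 710.8 and 679.8, and fraction E had 484.3, 483.4, 439.0, 344.2 and 402.0. Fraction F had 187.3, 272.7, 191.4, 163.4 and 259.5, all below the arrays of fraction E.

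Id2 rose in fraction A relative to the CLP by 2.13 ± 0.31 (limma adjusted p = 6.41e-07), a fold of 4.37. It fell in fraction B relative to A by 4.53 ± 0.31 (limma adjusted p = 5.80e-16), a fold of 23.1, and by 2.41 ± 0.31 relative to the CLP (limma adjusted p = 1.06e-07). Without arrays 4, 6 and 7 of fraction A the first 2 differences were 2.33 and -4.74, and without arrays 1 and 4 of fraction B the difference from A was -4.07. Id2 rose again in fraction D relative to C by 1.34 ± 0.36 (limma adjusted p = 0.00629), although the arrays of C and D overlapped through array 1 of fraction C. That array also had the highest NK list sum of fraction C, 9153, against 2168 to 3678 on the other 4. Of the 11 NK genes, 7 rose in C relative to B and 8 fell in D relative to C (14.2% and 13.8% of all genes), and their part in the Id2 values of fraction C was not tested. In fraction F relative to E it was -0.92 ± 0.36 and did not pass (limma adjusted p = 0.57, and 0.00996 to 0.857 over 12 alternatives). It remained below the CLP in fraction F, where it fell by 1.96 ± 0.34 (limma adjusted p = 7.96e-06). In the order A, CLP, D, E, F, C and B, the only neighbours that passed were A and the CLP. Populations further apart could still differ: among others, D and E stood above B by 1.71 ± 0.34 and 1.37 ± 0.34, and both passed.

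All 3 Id2 probe sets had their highest mean in fraction A. For 1453596_at, which reached the array median on only 11 arrays, this mean (7.20) was close to that of fraction D (7.15). In fraction B relative to A all 3 fell (-2.58, -4.53 and -1.45), and all 3 fell relative to the CLP (-1.22, -2.41 and -1.18), where 12.4% and 17.2% of all probe sets fell. In fraction A relative to the CLP, 2 of 3 rose, since 1453596_at differed by 0.27 ± 0.40. The rise in fraction D was called only for 1435176_a_at: 1422537_a_at differed by 0.17 ± 0.44 and 1453596_at by 0.74 ± 0.47. Averaged over its 3 probe sets, Id2 differed by 1.25 between A and the CLP and by -2.85 between B and A. Between D and C the averaged difference was 0.75 and did not pass.

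Id3 had its lowest levels where Id2 had its highest. In the CLP, 1416630_at had a lowest, median and highest signal of 246.8, 607.4 and 728.6. In fraction A these were 153.4, 286.6 and 610.9, and in fraction B 582.7, 1110.9 and 1467.2. Fraction A overlapped with the CLP and, through 1 array each, with fraction B. Fraction C had 804.3, 720.4, 597.8, 1081.8 and 876.7, and fraction D had 846.4, 830.3, 551.6, 772.5 and 932.5. Fraction E had 1210.0, 1119.0, 1168.9, 1199.6 and 1037.5, all above fraction D. Fraction F had 765.3, 1125.9, 1182.2, 1251.4 and 1160.8.

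Id3 rose in fraction B relative to A by 1.69 ± 0.23 (limma adjusted p = 1.57e-07) and stood above the CLP in fraction B (0.90 ± 0.23, limma adjusted p = 0.00277) and in fraction F (0.97 ± 0.25, limma adjusted p = 0.00193). It fell in fraction A relative to the CLP by 0.79 ± 0.23 (limma adjusted p = 0.00671), a call that 3 of 13 alternatives lost (adjusted p-values of 0.000218 to 0.109). Fraction E minus D was 0.54 ± 0.27 and did not pass (limma adjusted p = 0.307), although the arrays did not overlap, and it lay at 0.006 in a fit of these 2 populations alone (0.006 to 0.471 over 12 alternatives). In the order E, F, B, C, D, CLP and A, the only neighbours that passed were the CLP and A.

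**Figure D2:**
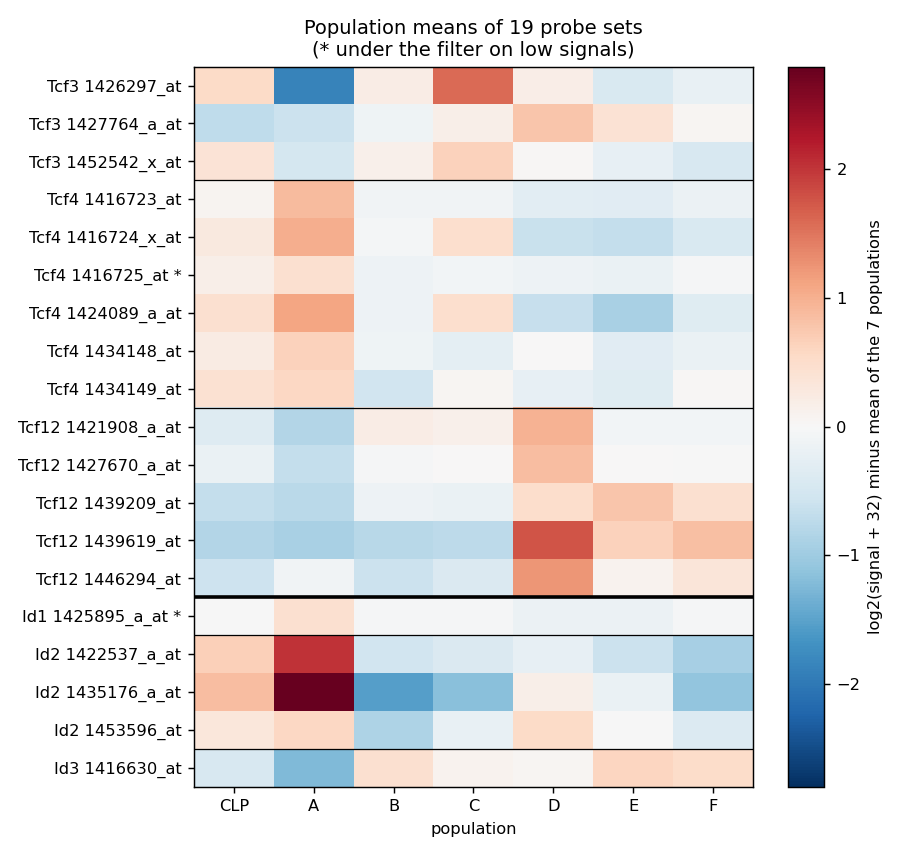
Population means of all 19 probe sets as log2(signal + 32) minus the mean of the 7 populations of that probe set (red higher, blue lower), with E protein genes above the thick line and Id genes below it. The tested Tcf4 and the Id2 probe sets are highest in fraction A, 4 of 5 Tcf12 probe sets are highest in fraction D, and the 3 Tcf3 probe sets differ in where they are highest.

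Taking the genes step by step, 4 of the 5 tested passed in fraction A relative to the CLP, where 37.1% of all genes passed. Tcf4 and Id2 rose and Tcf3 and Id3 fell, so each of the groups held a gene that rose and a gene that fell. In fraction B relative to A all 5 passed (31.3% of all genes passed), but the Tcf12 call was lost in 6 of 14 alternatives and its difference was 0.314 without array 7 of fraction A. Tcf3, Tcf12 and Id3 rose and Tcf4 and Id2 fell, which is the opposite of the previous step for the 4 genes called in both. These steps share the fraction A arrays. The arrays did not overlap for Tcf4 and Id2 at either step, where 9.47% and 5.12% of all genes did not overlap. In fraction B relative to the CLP, which leaves out fraction A, 2 of 5 passed (27.9% of all genes): Id2 fell and Id3 rose, and none of the 3 E protein genes passed, at -0.33 ± 0.35 for Tcf3, -0.17 ± 0.15 for Tcf4 and 0.15 ± 0.23 for Tcf12. Averaged over its probe sets, Tcf4 did fall there (-0.451, limma adjusted p = 0.00533, against 0.00533 to 0.731 over 13 alternatives).

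At the later steps fewer of the 5 genes passed in the fit of all populations. In fraction C relative to B it was Tcf3 alone (1 of 5, against 22.9% of all genes). In fraction D relative to C it was Tcf3 down and Tcf12 and Id2 up (3 of 5, against 21.3%). In fraction E relative to D it was Tcf12 down (1 of 5, against 8.11%), and in fraction F relative to E none of the 5 passed, where 0.469% of all genes did. At that last step Id2 had an unadjusted p under 0.05 and the other 4 genes did not. The fit of all populations gave each gene 1 variance, although Tcf3 had a log2 SD of 1.37 in fraction A and 0.24 in F. Its calls therefore cannot show that fewer genes changed late. Fits of 2 populations called 2443 and 1350 genes at the first 2 steps and 2860, 5248, 2983 and 579 later. They lost Id3 in A relative to the CLP and Tcf12 in B relative to A. They gained Tcf3 and Id3 in E relative to D and Id2 in F relative to E. In the fit of all populations, Id2 fell and Id3 rose in fraction F relative to the CLP (2 of 5, against 42.0%). Tcf3 was -0.73 ± 0.38 there, Tcf4 -0.25 ± 0.17 and Tcf12 0.18 ± 0.25, and none of these passed. Averaged over their probe sets, Tcf4 (-0.458) and Tcf12 (0.836) did pass. Across the 7 populations each of the 5 genes differed by limma's F-test, with adjusted p-values from 7.85e-16 for Id2 to 0.000213 for Tcf12, where 73.3% of all genes passed.

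Separation of the arrays gave a further view of the same comparisons. From fraction C on, arrays did not overlap for Tcf3 in C and B (13.1% of all genes), for Tcf3 and Tcf12 in D and C (29.0%), for Tcf12 and Id3 in E and D (18.5%) and for Id2 in F and E (6.32%). Relative to the CLP they did not overlap for Id2 in fraction B (13.4%) and for Id2 and Id3 in fraction F (36.5%).

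**Figure D3:**
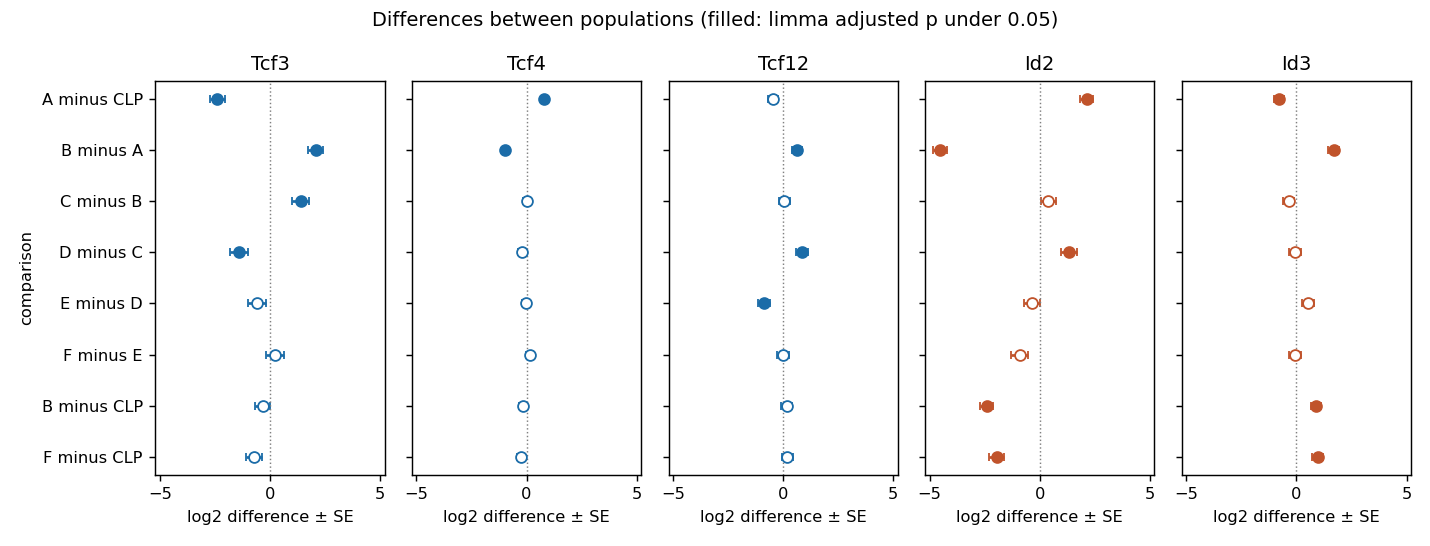
log2 difference ± SE of the 5 tested genes in 8 comparisons (first population minus second, zero as a dotted line), with E protein genes in blue and Id genes in orange and filled points for a limma adjusted p under 0.05. Tcf3 and Id3 lie left of zero and Tcf4 and Id2 right of it for A minus CLP, each on the other side for B minus A, and no point is filled for F minus E.

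To set activators against inhibitors, the log2 value of an Id gene was subtracted from that of an E protein gene on the same array, and each difference was given relative to its mean in the CLP. Only the change of such a difference can be read, since the probe sets have no common scale. No test was made. The mean of the 3 E protein genes minus the mean of the 3 Id genes was -1.28 ± 0.35 in fraction A and 0.39 ± 0.22 in fraction B (SD, n = 7 each). It was 0.87 ± 0.28 in fraction C, 0.23 ± 0.20 in D, -0.32 ± 0.14 in fraction E and 0.08 ± 0.09 in F (SD, n = 5 each). Fraction A lay at -1.88 to -0.85, below all CLP arrays (-0.41 to 0.36) and all fraction B arrays (0.09 to 0.68). Fraction E lay at -0.49 to -0.15, below all arrays of fraction D (0.05 to 0.55) and of fraction F (-0.05 to 0.20). Without Id1, which was not tested, the value was -1.35 in fraction A, 0.64 in fraction B, 1.11 in C, 0.21 in fraction D, -0.38 in E and 0.23 in fraction F. Without arrays 4, 6 and 7 it was -1.07 in fraction A. With probe sets averaged per gene it was -0.535 in fraction A, 0.508 in C, 0.456 in fraction D, -0.020 in E and 0.199 in fraction F, and with quantile normalization it was 0.052 in B.

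The pairs within this mean, taken from the probe sets that represent the genes, differed in size and in sign. Tcf3 minus Id2 moved most: it was -4.52 ± 1.63 in fraction A, 2.08 ± 1.32 in B and 3.09 ± 0.55 in C, and it was 0.34 ± 0.38 in D, 0.10 ± 0.41 in E and 1.23 ± 0.36 in F. Tcf3 minus Id3 was highest in C (0.51 ± 0.44) and lowest in E (-1.99 ± 0.35), and it was -1.61 ± 1.01 in A, -1.23 ± 0.60 in B, -0.85 ± 0.15 in D and -1.70 ± 0.35 in F. Against Id2, all 3 E protein genes stood below the CLP in fraction A, and their means stood above it in fractions B to F.

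Against Id3 the picture turned. Tcf4 minus Id3 was 1.60 ± 0.58 in fraction A and between -1.45 and -0.72 in fractions B to F. Tcf12 minus Id3 was 0.56 ± 0.26 in fraction D, where all arrays lay above all arrays of C and of E, and -0.84 ± 0.10 in E. In fraction A it was 0.32 ± 1.29 (median 0.60): arrays 1 to 6 lay at 0.42 to 1.68 and array 7 at -2.46. Tcf12 minus Id2 was -2.59 ± 0.59 in fraction A and 1.25 to 2.56 in fractions B to F. Whether fraction A had more or less E protein than Id RNA relative to the CLP therefore depended on the pair. With the probe sets that represent the genes, Tcf3 was lower against either tested Id gene. The other 2 Tcf3 probe sets differed by 0.095 and -0.877 between fraction A and the CLP, against -0.785 for Id3. Whether Tcf3 was lower against Id3 therefore depended on the probe set. Tcf4 was lower against Id2 and higher against Id3, with arrays of fraction A and the CLP overlapping in both Tcf4 pairs. Tcf12 was lower against Id2. Against Id3, 6 of 7 arrays of fraction A lay above the CLP mean, but the CLP arrays ran from -0.72 to 0.95 and the 2 populations overlapped. The signs against Id2 depended on the probe set too. Between fraction A and the CLP, Id2 differed by 1.356 for 1422537_a_at and by 0.273 for 1453596_at. The latter was less than the 0.811 of Tcf4 1416723_at and the 0.483 of Tcf12 1446294_at.

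**Figure D4:**
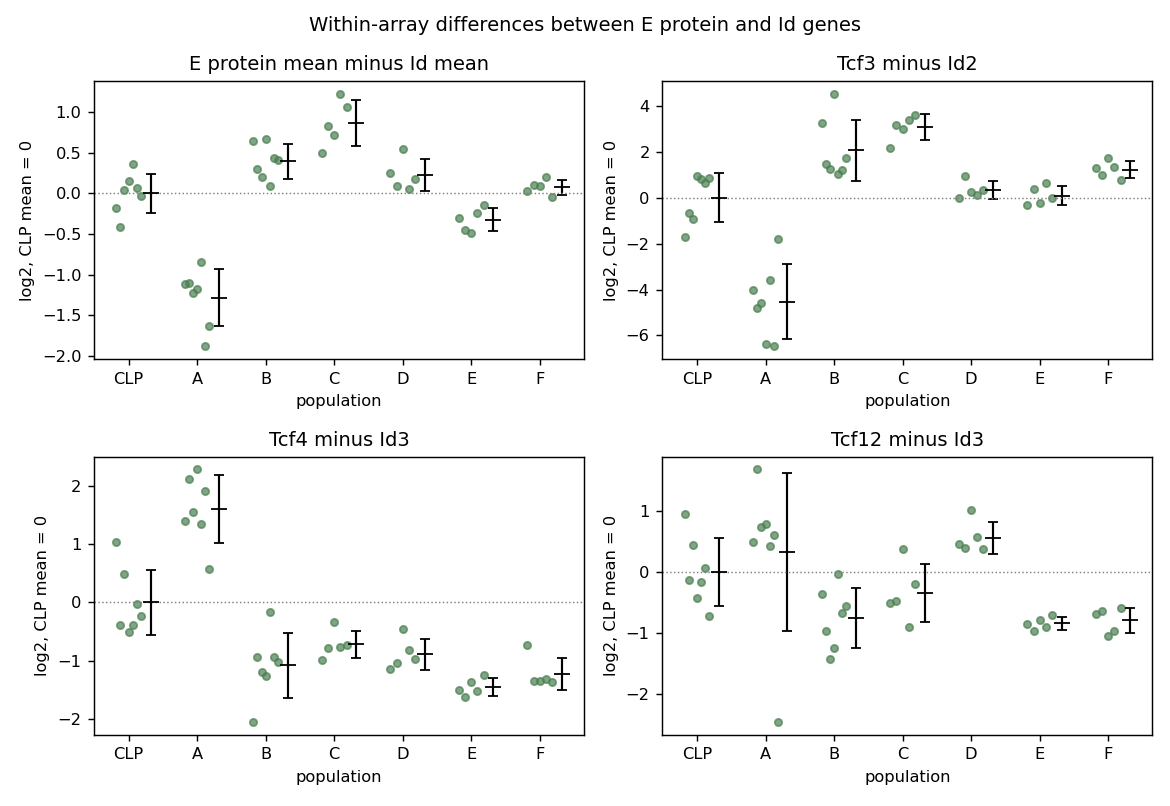
Within-array log2 difference of E protein genes minus Id genes (points, 1 per array; black bars, mean ± SD) by population, shifted so that the CLP mean is 0. The mean of all 6 genes and Tcf3 minus Id2 are lowest in fraction A (-1.28 and -4.52), Tcf4 minus Id3 is highest there (1.60), and Tcf12 minus Id3 has its highest mean in fraction D (0.56), while 6 of 7 arrays of fraction A also lie above 0.

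Genes that E proteins are known to switch on, or that work with them in early B cells, were mostly lower in fraction A. Of 19 tested genes on this list, 0 rose and 15 fell in fraction A relative to the CLP (median -2.002, against -0.23 over all genes, of which 11.5% rose and 25.6% fell). Ebf1, which commits cells to the B lineage, fell by 4.34 ± 0.26. Igll1, part of the surrogate light chain, fell by 4.30 ± 0.50, and Pou2af1, a coactivator of immunoglobulin genes, fell by 3.82 ± 0.50. In fraction B relative to A, 18 rose and 0 fell (median 2.78, against 0.02 over all genes, of which 16.9% rose and 14.5% fell). Ebf1 rose by 5.02 ± 0.26, Pou2af1 by 4.99 ± 0.50 and Igll1 by 4.81 ± 0.50. Without arrays 4, 6 and 7 of fraction A, 18 fell and 0 rose in A relative to the CLP and 17 rose and 0 fell in B relative to A.

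The summed signal of this list was 25069 to 122655 in fraction A, against 83335 to 105645 in the CLP and 136278 to 181433 in fraction B. Within fraction A, array 4 had the highest sum, 122655, and a Tcf3 signal of 53.3. Array 7 had the next highest sum, 80147, and the highest Tcf3 signal, 1018.5. The remaining arrays of fraction A summed to 25069 to 38194. Arrays 4 and 7 were both among those that correlated least with the rest of fraction A. Whether the sum followed Tcf3 from array to array was not tested. In fraction B relative to the CLP, 7 genes rose and 1 fell (median 0.67, against -0.20 over all genes, of which 8.81% rose and 19.1% fell), including Irf4 (2.26 ± 0.28), Cd79b (1.56 ± 0.31) and Bach2 (1.43 ± 0.19). The gene that fell was Gfi1 (-1.22 ± 0.31), a repressor. With quantile normalization 3 rose and 2 fell there, and without arrays 1 and 4 of fraction B 4 rose and 1 fell.

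In fraction C relative to B, where Tcf3 was called higher, 2 of the 19 rose and 0 fell (14.2% and 8.75% of all genes): Pax5, which maintains B cell identity, by 1.15 ± 0.32 and Gfi1 by 0.94 ± 0.34. With median centring 0 rose and 4 fell. In fraction D relative to C, 5 rose and 4 fell (7.51% and 13.8% of all genes). Irf4 (1.06 ± 0.33), Rag1 (0.96 ± 0.33) and Ebf1 (0.82 ± 0.30) rose, and Dntt (-2.26 ± 0.50), which adds bases at immunoglobulin gene joints, Igll1 (-2.12 ± 0.59) and Lef1 (-1.44 ± 0.28) fell. In fraction E relative to D, 0 rose and 8 fell (3.90% and 4.21% of all genes; median -0.76, against 0.01), led by the recombinase gene Rag2 (-3.17 ± 0.32), Dntt (-3.09 ± 0.50) and Vpreb1 (-2.98 ± 0.81). At F relative to E, 1 fell, Il7r (-0.78 ± 0.18), and 0 rose, where 0.218% and 0.251% of all genes did. In fraction F relative to the CLP, 3 rose (Irf4, Cd79b and Bach2) and 10 fell, led by Dntt (-7.12 ± 0.46), where 15.2% of all genes rose and 26.7% fell.

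Partners and cofactors of helix-loop-helix proteins moved less uniformly. Of 20 tested, 1 rose and 6 fell in fraction A relative to the CLP, where 11.5% of all genes rose and 25.6% fell: Bhlhe40, a repressor with a helix-loop-helix region, rose by 2.04 ± 0.41, and Tal1 (-1.17 ± 0.34) and Lyl1 (-0.91 ± 0.18), which dimerise with E proteins, were among those that fell. In fraction B relative to A, 4 rose, including Skp2 (1.33 ± 0.26), part of a ubiquitin ligase, and Lyl1 (0.83 ± 0.18), and 2 fell, Bhlhe40 (-3.17 ± 0.41) and Cbfa2t3 (-0.55 ± 0.18), a corepressor that E proteins can bind, where 16.9% of all genes rose and 14.5% fell. These counts lay near the shares over all genes. Relative to the CLP, Lmo2 (-1.19 ± 0.31), a bridging protein of Tal1 complexes, and Bhlhe40 (-1.14 ± 0.41) fell in fraction B and 0 rose (19.1% and 8.81% of all genes). In fraction C relative to B, Lmo4 (1.30 ± 0.39) and Cbfa2t3 (0.67 ± 0.20) rose and Usp1 (-0.55 ± 0.14), a deubiquitinase that stabilises Id proteins, fell (14.2% of all genes rose and 8.75% fell).

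From fraction C onward the partner list changed in both directions. In fraction D relative to C, 3 rose and 4 fell (7.51% and 13.8% of all genes), with Bhlhe41 (1.14 ± 0.31) up and Bhlhe40 (-1.54 ± 0.48), Lmo2 (-1.42 ± 0.37) and Ldb1 (-1.34 ± 0.37) down. In fraction E relative to D, Bhlhe40 rose by 4.63 ± 0.48, Lmo2 by 2.57 ± 0.37 and Lyl1 by 1.07 ± 0.21, while Skp2 (-1.62 ± 0.31) and Usp1 (-0.67 ± 0.15) fell, where 3.90% of all genes rose and 4.21% fell. None of the 20 passed in F relative to E, where 0.469% of all genes did. In fraction F relative to the CLP, 3 rose, among them Bhlhe40 (2.90 ± 0.45) and Bhlhe41 (2.49 ± 0.29), and 4 fell, among them Tal1 (-1.62 ± 0.37), where 15.2% of all genes rose and 26.7% fell.

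The next list holds genes that induce Id genes in various cells or that act for or against such induction. Of 17 tested, 8 rose and 2 fell in fraction A relative to the CLP (median 0.56, against -0.23 over all genes, of which 11.5% rose and 25.6% fell). Eomes (5.47 ± 0.32) and Tbx21 (4.18 ± 0.38), transcription factors of NK and T cells, and Egr2 (2.31 ± 0.53), which responds to receptor signals, rose most, and Smad7 (-1.11 ± 0.44) and Smad1 (-1.10 ± 0.37) fell. In fraction B relative to A, 0 rose and 7 fell, led by Tbx21 (-5.70 ± 0.38), Eomes (-5.24 ± 0.32) and Nfil3 (-2.31 ± 0.29), a factor needed for NK cells and known to act before Id2 there, where 16.9% of all genes rose and 14.5% fell. Eomes and Tbx21 moved with the NK list given above, on which 10 of 11 genes rose in fraction A relative to the CLP (median 4.22, where 11.5% of all genes rose) and 10 fell in B relative to A (14.5% of all genes fell). The part of NK cells in the Id2 value was not tested.

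At the step into fraction E, 3 of these 17 rose and 0 fell (3.90% and 4.21% of all genes): Egr3 by 4.50 ± 0.41, Egr1 by 2.14 ± 0.51 and Myc by 1.80 ± 0.24. Id3 stood at 0.54 ± 0.27 at that step and did not pass in the fit of all populations. In fraction F relative to the CLP, 4 rose and 9 fell (15.2% and 26.7% of all genes), with Egr3 (5.29 ± 0.38), Egr2 (3.31 ± 0.58) and Egr1 (2.03 ± 0.47) up and Nfil3 (-2.27 ± 0.32) and Smad1 (-2.18 ± 0.41) down. In fraction D relative to C, 2 rose and 6 fell (7.51% and 13.8% of all genes), including Myc (-2.73 ± 0.24). In fraction C relative to B, Tbx21 rose by 1.56 ± 0.42 and Egr1 fell by 1.62 ± 0.47 (14.2% of all genes rose and 8.75% fell), and in B relative to the CLP, Egr1 (1.16 ± 0.43) rose and 3 fell, Tbx21, Nfil3 and Smad1 (8.81% and 19.1% of all genes). None of the 17 passed in F relative to E, where 0.469% of all genes did.

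Correlations between the genes are given as a description over arrays that share populations. Over the 41 arrays Id2 and Id3 had r = -0.79, and over the 34 arrays without fraction A they had -0.518. Tcf4 and Id2 had 0.719 and 0.233, Tcf3 and Id2 had -0.632 and -0.157, and Tcf3 and Id3 had 0.552 and -0.171. These values therefore depended on the fraction A arrays, least so for Id2 and Id3. Among all genes tested, Elof1 was most like Tcf3 (r = 0.862, and 0.806 without fraction A). It was followed by Acss1 (0.849, and 0.643), Ppp6c (0.836, and 0.667), Map7 (0.828, and 0.567) and A630026N12Rik (0.819, and 0.543). Most like Tcf4 were Serpinb9 (0.861, and 0.513 without fraction A), Ifngr1 (0.855), the NK receptor genes Klrd1 (0.855) and Klrb1b (0.844), and Lpcat4 (0.838).

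Most like Id2 were Ms4a4b (0.868, and 0.588 without fraction A), Btbd11 (0.864), Klrb1b (0.862), Tafa3 (0.861) and Snx18 (0.856), so Klrb1b stood on the lists of Tcf4 and of Id2. Most like Id3 were Btk (0.862, and 0.76 without fraction A), a kinase of B cell receptor signalling, and Cd79b (0.854, and 0.749), a chain of that receptor, followed by Cd36 (0.808), Mtss1 (0.799) and Edaradd (0.794). Most like Tcf12 were Psme4 (0.847, and 0.704 without fraction A), Mex3c (0.847, and 0.606), Vps54 (0.833, and 0.561), 4930428B01Rik (0.806, and 0.598) and Rb1cc1 (0.804, and 0.558).

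Of the 19 annotated genes of the E protein target list, 18 were matched to a promoter, and 16 of these held CANNTG (88.9%, against 69.3% of 27025 genes at any listed start). CAGGTG or its reverse complement CACCTG was found for 7 (38.9%, against 19.4%) and CAGCTG for 3 (16.7%, against 14.7%). The list was made of known targets with these data already seen, and the shares are a description.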

How the data were processed

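RNA of 7 sorted populations was measured on 41 single-colour Affymetrix arrays, per the labels after PicoPure extraction and NuGEN Ovation Pico amplification. The authors deposited intensity values made with MAS5, as their processing notes state without a version, and had scaled each array to 500: the mean after trimming 2% at either end lay at 499.8 to 499.9. The sources used here name no build. Groups and replicate numbers came from the sample titles. Probe sets with 1 gene in the platform annotation (34945 of 45101) were used, and coordinates and promoters came from RefSeq on GRCm38.p6.

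The deposited signals were taken as log2(signal + 32) without further normalization. Each gene took its brightest probe set by mean. Genes entered the test when 5 or more arrays showed them at or above the median of the array, which left 11951 genes (28459 probe sets, tested on their own). Differences were tested in limma 3.58.1, using lmFit, contrasts.fit and a trended, robust eBayes with statmod 1.5.0 in R 4.3.3, in 1 fit of 7 populations with Benjamini-Hochberg adjustment and a threshold of 0.05. The method was tested on simulated data. Within-array differences and gene lists were described without a test. The genes, lists and tests were chosen with earlier results of these data known.

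Named genes are the 6 genes with all their probe sets, up to 3 called genes in each direction from 3 lists (targets, partners and inducers), the 5 genes most correlated with each tested gene, and defining markers. Some list genes are not analysed here. Alternatives were pseudocounts of 1 and 128, other filters, quantile normalization, median centring, the mean of probe sets, the replicate number as a block, fits of 2 populations, array weights and leaving out arrays. The number of arrays limits the precision.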

Additional observations from a re-analysis of the deposited data

Results flagged for a closer look

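Of 49 groups of arrays checked (the 6 genes and the E protein minus Id value, each in 7 populations), 2 held an array far from the others of its group, and chance gives about 1 in 20 such groups. Array 4 of fraction B had an Id2 value of 5.53 on the log2 scale (a signal of 14.1), whereas the nearest other array of fraction B was at 7.13 and the highest at 8.19. That array was also among the 2 of fraction B with the lowest correlation to the rest of the group. Without both of these arrays Id2 differed by -4.07 between fractions B and A and by -1.95 between B and the CLP, and both passed. Array 1 of fraction F had an Id3 value of 9.64 (a signal of 765.3), whereas the nearest other was at 10.18 and the highest at 10.33. Leaving out each array of F and of the CLP in turn gave Id3 differences of 0.798 to 1.09 between F and the CLP, and all of them passed.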

How the results depend on the processing

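For the 40 differences (5 genes in 8 comparisons), 505 values under other settings gave 15 lost and 15 gained calls and 0 called values of opposite sign, and 24 differences changed under none of them. The rest changed as follows, and the cause was not tested. Without the filter Tcf12 in E against D was -0.859 (adjusted p = 0.0535), and without trend and robust it was -0.859 (0.059). Quantile normalization lost Id3 in A against CLP (-0.577, 0.0729) and Tcf12 in B against A (0.471, 0.0802). Median centring lost Id3 in A against CLP (-0.554, 0.109), Tcf3 in C against B (0.967, 0.0749) and Tcf12 in E against D (-0.877, 0.0526), and called Id3 in C against B (-0.773, 0.0494). The mean of probe sets lost Tcf12 in B against A (0.372), Tcf3 in C against B (0.722) and in D against C (-0.472) and Id2 in D against C (0.750), and called Tcf4 in D against C (-0.411), in B against CLP (-0.451) and in F against CLP (-0.458) and Tcf12 in F against CLP (0.836). Fits of 2 populations lost Id3 in A against CLP (-0.785) and Tcf12 in B against A (0.617), and called Tcf3 (-0.594) and Id3 (0.544) in E against D, Id2 in F against E (-0.918) and Tcf3 (-0.727) and Tcf4 (-0.247) in F against CLP. Array weights lost Tcf12 in B against A (0.206), and called Tcf3 (-0.614) and Id3 (0.572) in E against D, Id2 in F against E (-0.879) and Tcf3 in B (-0.584) and F (-0.787) against CLP. Without arrays 4, 6 and 7 of fraction A, chosen after seeing the data like the removal of arrays 1 and 4 of fraction B, Tcf12 in B against A was 0.105. Leaving out 1 array at a time changed 19 of 480 calls, all of Tcf12: its differences ranged from -0.599 to -0.163 in A against CLP (called without A array 1 or 2), from 0.314 to 0.753 in B against A (lost without A array 6 or 7 or B array 1, 2, 6 or 7), from 0.788 to 0.934 in D against C and from -0.879 to -0.819 in E against D. With the mean of probe sets the E protein minus Id value was -0.535 in fraction A, 0.508 in C, 0.456 in fraction D, -0.020 in E and 0.199 in fraction F, and with quantile normalization it was 0.052 in B.

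Replicate numbers did not pair the arrays by the rule that every same-number correlation exceed 0.1: these ran from -0.19 to 0.206 for B and A. They were 0.037 to 0.125 for E and D and 0.051 to 0.12 for F and E, where 4 of 5 arrays correlated best with their own number, a hint from the data and not the design. The replicate block gave 0.617 for Tcf12 in B against A (adjusted p = 0.0286) and changed no call of the 5 genes. The genes called were 4435, 3745, 2739, 2544, 969 and 56 at the 6 steps, 3333 in B and 5014 in F against CLP. Fits of 2 populations gave 2443 and 1350 at the first 2 steps and 5248, 2983 and 579 at the last 3, and array weights gave 4615, 5525, 3142 and 470 from C on and 5149 in B against CLP. The share called higher was 31.0, 53.8, 61.8 and 31.6% in A against CLP, B against A, C against B and B against CLP, and with median centring it was 53.4, 72.1, 19.3 and 74.7%. The median of all genes in C against B was 0.19, and with median centring -0.23.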
